A study of Homo sapiens with 6 samples.

Results

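The ATP-binding cassette (ABC) genes of SKOV3ip1 ovarian carcinoma cells were examined after silencing of BARD1. The family was taken as every protein-coding gene of the deposited table whose name begins with ABCA, ABCB, ABCC, ABCD, ABCE, ABCF or ABCG and a digit. This gave 45 genes of 58735, and 25 of the 45 had enough reads to be tested. Gene positions are those of the deposited table, on GRCh38.

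SKOV3ip1 is an established human line derived from the SKOV3 ovarian adenocarcinoma line, and all libraries come from this single line, labelled wild type. The labels also call the material tumors, but the protocols describe cells grown in culture. These were transfected with 2 µg of either control siRNA or BARD1 siRNA, and RNA was taken after 48 h. There were 3 libraries in each group, labelled biological replicates. Each title also carries a number after the siRNA name, and whether it stands for a replicate or for a different siRNA cannot be told from the labels. The spread within a group may therefore hold differences between siRNAs. The labels do not give transfection days or siRNA sequences, so a p-value here speaks only of the spread among these 6 cultures, which may be technical. Both groups had received siRNA with a lipid reagent. BARD1 is the partner of BRCA1 in a ubiquitin ligase of DNA repair, and the study asked how its loss affects the angiogenic pathways of tumour cells.

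ABC proteins share a domain that binds and hydrolyses ATP, and most use it to move a substrate across a membrane. The ABCB1, ABCC and ABCG2 pumps export drugs and conjugated metabolites and are best known in ovarian carcinoma for their link with resistance to chemotherapy. Other members carry sterols and phospholipids, feed fatty acids into peroxisomes or serve the mitochondrion, and the ABCE and ABCF proteins lack membrane domains and act on ribosomes.

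Each library held between 16621108 and 17743404 counts. Levels are given in CPM, a gene's count scaled to a fixed library size, and 1 CPM stood for about 17.2 reads. The target BARD1 had 805, 644 and 887 counts in the controls against 96, 110 and 169 after its own siRNA, and its level per library went from 44.3 ± 5.85 down to 7.38 ± 2.04 CPM (mean ± SD, n = 3 each, edgeR adjusted p = 1.21e-15). Of the 8 epithelial and ovarian markers, KRT8, PAX8, KRT7 and ERBB2 were abundant, whereas MUC16 had at most 8 counts in a library. The summed level of these markers ran from 4045 to 4427 CPM among controls and from 4235 to 4345 CPM with BARD1 siRNA, a sum made up largely of ERBB2 and KRT8. Single markers moved in opposite directions: KRT7 fell from 264 to 134 CPM and EPCAM by 0.24 on the log2 scale, whereas PAX8 rose from 350 to 589 CPM and KRT18 by 0.40 (edgeR). Their part in the ABC results was not tested. Of 4 leukocyte markers PTPRC and CD3E were at 0 in all libraries, and the list summed to 0.610 to 1.25 CPM among controls and 0.230 to 0.308 CPM with BARD1 siRNA. The 3 endothelial markers summed to at most 0.308 CPM and the 3 fibroblast markers to at most 1.71 CPM in any library.

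The upstream sequences of 4 genes that rose or fell after BARD1 silencing are shown first, since the motifs they hold are described beside the measured levels. They are the 250 bases before the RefSeq start site on GRCh38.p14, written 5′ to 3′ along the gene's own strand. Capitals mark matches to the motifs searched: in ABCA1 (chr9:104928156-104928405, minus strand) GC boxes, an E-box, a direct repeat and a TATA box; in ABCB10 (chr1:229558708-229558957, minus strand) and ABCD3 (chr1:94418139-94418388, plus strand) GC boxes; in ABCC4 (chr13:95301452-95301701, minus strand) the core of an antioxidant response element.
ABCA1: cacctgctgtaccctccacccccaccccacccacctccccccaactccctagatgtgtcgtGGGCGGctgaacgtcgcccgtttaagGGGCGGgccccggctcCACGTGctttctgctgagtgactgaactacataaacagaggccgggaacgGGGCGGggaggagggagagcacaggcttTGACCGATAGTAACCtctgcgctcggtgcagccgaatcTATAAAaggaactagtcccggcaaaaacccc
ABCB10: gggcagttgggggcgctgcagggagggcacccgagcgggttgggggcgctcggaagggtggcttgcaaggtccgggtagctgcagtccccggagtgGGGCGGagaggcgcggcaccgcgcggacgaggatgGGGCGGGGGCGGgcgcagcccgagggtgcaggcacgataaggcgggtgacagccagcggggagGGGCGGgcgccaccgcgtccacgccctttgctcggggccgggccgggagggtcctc
ABCD3: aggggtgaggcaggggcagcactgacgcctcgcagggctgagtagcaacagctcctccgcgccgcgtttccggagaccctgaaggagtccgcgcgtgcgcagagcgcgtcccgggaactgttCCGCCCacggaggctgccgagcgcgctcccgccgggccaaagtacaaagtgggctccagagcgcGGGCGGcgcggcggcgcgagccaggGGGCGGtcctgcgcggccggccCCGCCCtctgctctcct
ABCC4: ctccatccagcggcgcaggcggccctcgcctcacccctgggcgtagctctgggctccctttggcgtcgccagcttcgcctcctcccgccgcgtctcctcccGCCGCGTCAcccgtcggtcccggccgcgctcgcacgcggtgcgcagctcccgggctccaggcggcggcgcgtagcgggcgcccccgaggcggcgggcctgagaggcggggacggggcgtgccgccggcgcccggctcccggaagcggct

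BARD1 silencing was followed by higher RNA of 3 ABC genes and lower RNA of 6 in the edgeR test. ABCA1, the cholesterol exporter, rose 3.29-fold, and ABCC3, a pump of conjugated anions, rose 1.95-fold. ABCB10 of the mitochondrial inner membrane fell 1.71-fold and ABCD3 of the peroxisome fell 1.52-fold. ABCC4, ABCA3 and ABCE1 fell by smaller amounts, and ABCF3 rose 1.16-fold. The calls amounted to 36% of the 25 tested members, whereas 42.3% of the 15271 tested genes were called and 47.1% of the tested protein-coding genes. By direction, 22% of all tested genes were called higher and 20.3% lower. The median log2 fold change was 0.02 over the 25 members and -0.01 over all tested genes. With upper-quartile factors or library size alone, the share of calls that were higher over all genes was 41.5% and 42.2%, against 51.9% with TMM factors. In 13 of the 25 members the libraries of the 2 groups did not overlap in CPM, while 50.4% of all tested genes had this property. Only ABCA1 of the 25 was called with a change of at least 2-fold. Over all tested genes this held for 6.42%, and over tested protein-coding genes for 6.01%. In RNA from whole cultures, fewer cells carrying a transcript and less of it per cell cannot be told apart.

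**Figure D1:**
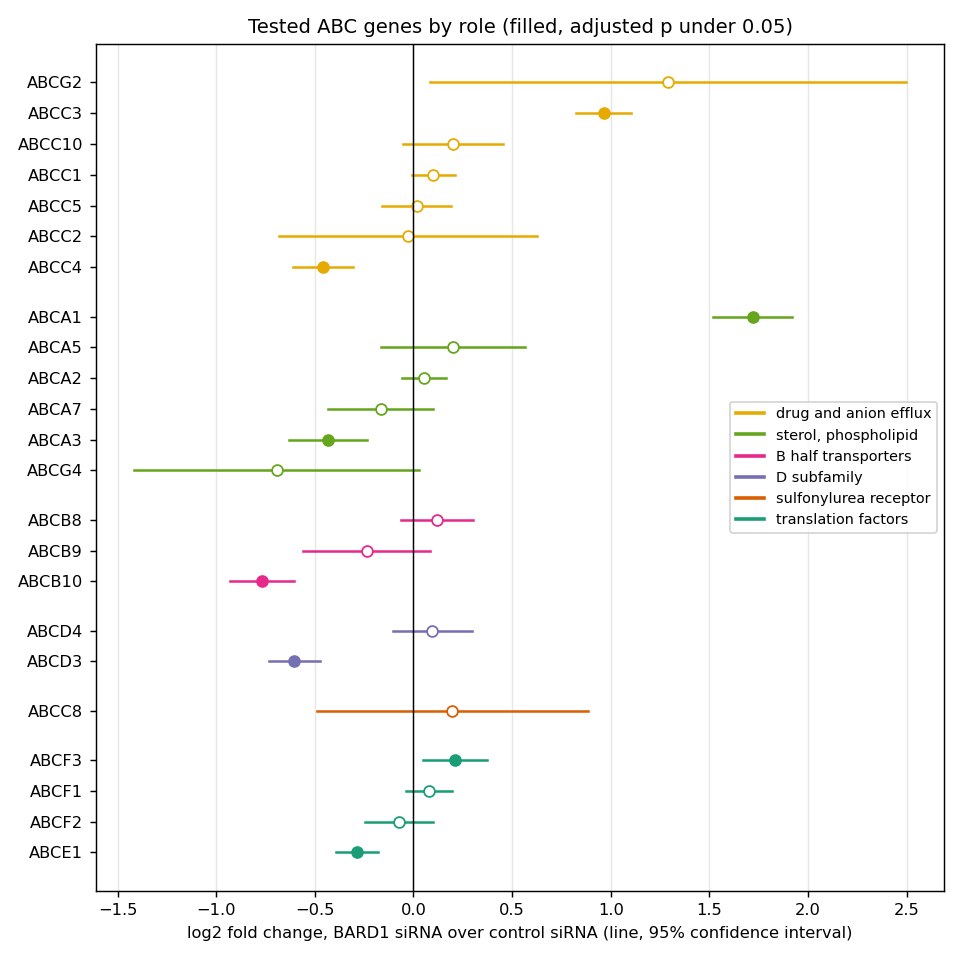
Log2 fold change of 23 tested ABC genes (horizontal axis, BARD1 siRNA over control siRNA), grouped by role, with lines for 95% confidence intervals and filled points for an adjusted p under 0.05 in edgeR. ABCA1 at 1.72 and ABCC3 at 0.96 lie farthest right among the filled points and ABCB10 at -0.77 farthest left.

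The drug and organic anion pumps comprise 10 members, of which 7 were tested, 1 rose, 1 fell and 5 were not called. This makes 28.6% called, against 42.3% of all tested genes. Their summed level per gene length was 39.4 ± 0.681 RPKM (CPM per kilobase of gene length) among controls and 44.2 ± 0.855 RPKM with BARD1 siRNA. The 3 control values ran from 38.6 to 40.0 RPKM and the 3 BARD1 siRNA values from 43.3 to 45.0 RPKM. The pumps thereby went from 21.8% to 25.7% of the RPKM sum of all 45 members. ABCC3 alone gained slightly more than the whole class, going from 5.15 ± 0.127 to 10.0 ± 0.840 RPKM. Of the other pumps, ABCC4 went from 7.52 down to 5.47 RPKM and ABCC1 from 21.5 up to 23.0 RPKM.

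ABCC3 (ENSG00000108846, chr17:50634777-50692252, plus strand) encodes MRP3, which exports glucuronides and bile salts across the basolateral membrane. Its counts were 860, 867 and 877 in control siRNA and 1709, 1610 and 1552 in BARD1 siRNA libraries. The groups were far apart, and the controls lay close together. In CPM the level went from 49.5 ± 1.22 to 96.6 ± 8.07, and the log2 fold change was 0.96 (SE 0.07, 95% interval 0.82 to 1.10, edgeR adjusted p = 5.10e-17). By RPKM it moved from the 11th to the 5th place among the ABC genes.

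ABCC4 (ENSG00000125257, chr13:95019829-95301475, minus strand) encodes MRP4, an exporter of cyclic nucleotides, prostaglandins and nucleotide analogues. Counts of 1133, 1064 and 1224 in control siRNA stood against 716, 787 and 890 with BARD1 siRNA. All 3 BARD1 siRNA libraries were below all 3 controls. ABCC4 stood at 65.0 ± 2.74 and 47.3 ± 3.58 CPM, with a log2 fold change of -0.46 (SE 0.08, 95% interval -0.61 to -0.30, edgeR adjusted p = 1.59e-06).

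ABCC1 (ENSG00000103222, chr16:15949577-16143074, plus strand) encodes MRP1, which exports glutathione conjugates and several anticancer drugs. It was the most abundant pump per length, at 21.5 ± 0.589 RPKM in control siRNA and 23.0 ± 0.678 RPKM in BARD1 siRNA libraries. Its counts were 2936, 2695 and 2935 against 2906, 2966 and 2938. Scaled to CPM, the BARD1 siRNA libraries at 169 to 179 lay just above the controls at 158 to 167, but the call was not made (log2 fold change 0.10, SE 0.05, 95% interval -0.01 to 0.21, edgeR adjusted p = 0.132). The upper end of the interval corresponds to a 1.16-fold higher level.

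ABCB1 (ENSG00000085563, chr7:87503633-87713323, minus strand) encodes P-glycoprotein, the classical multidrug pump, and its RNA was not detectable at this depth in control cells. All 3 control libraries held 0 counts, and 1 count was found over the 3 BARD1 siRNA libraries. The floor of 3 counts over a group is 0.0570 CPM in control siRNA, and no fold is given because both groups lie under their floor.

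ABCG2 (ENSG00000118777, chr4:88090264-88231322, minus strand), the breast cancer resistance protein that exports drugs and porphyrins, was scarce. It had 6, 9 and 3 counts in control siRNA and 14, 12 and 17 in BARD1 siRNA libraries. The groups did not overlap, yet all values lay below 1 CPM. Levels of 0.345 ± 0.181 and 0.850 ± 0.133 CPM gave a log2 fold change of 1.29 with a wide interval (SE 0.60, 95% interval 0.09 to 2.50, edgeR adjusted p = 0.0787). ABCG2 was the only member that entered the test through the BARD1 siRNA libraries alone, so its entry already required it to be higher there.

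ABCC2 (ENSG00000023839, chr10:99782640-99852594, plus strand) encodes MRP2, the apical exporter of conjugated anions. Counts were 52, 27 and 42 in control siRNA and 30, 34 and 50 in BARD1 siRNA libraries. The groups overlapped, with a log2 fold change of -0.03 (SE 0.33, 95% interval -0.68 to 0.62, edgeR adjusted p = 0.951), which spans from 0.623-fold to 1.54-fold of the control level. ABCC5, an exporter of nucleotide analogues, was measured far more tightly at 35.5 and 35.9 CPM, with a log2 fold change of 0.02 and a 95% interval of -0.16 to 0.19. ABCC10, known for taxane transport, stood at 14.1 and 16.2 CPM with a log2 fold change of 0.20 (95% interval -0.05 to 0.46). The DLK2 gene overlaps ABCC10 on the opposite strand at a similar mean count, 253 against 260, and no source used here gives the strand setting of the counting, so the reads of this pair cannot be assigned with certainty. ABCC11 had at most 3 counts in a library, and ABCB5 had none in any.

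**Figure D2:**
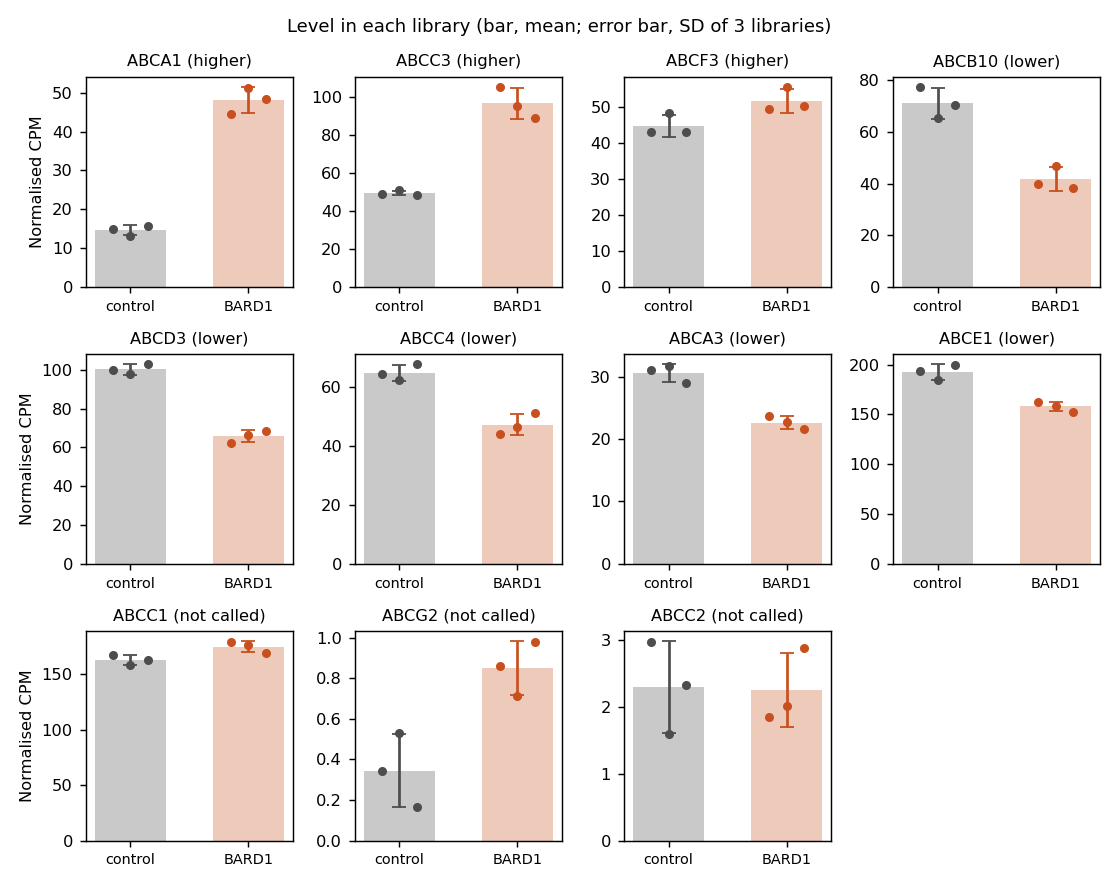
Normalised CPM of 11 ABC genes in each library (points), with group means (bars from 0) and SD of 3 libraries. The 8 genes marked higher or lower show no overlap between groups, ABCC1 and ABCG2 show none either but missed the threshold, and ABCC2 overlaps.

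Among the 12 sterol and phospholipid exporters, 6 were tested, of which 1 rose, 1 fell and 4 were not called. The share called was 33.3%, against 42.3% of all tested genes. ABCA1 (ENSG00000165029, chr9:104781002-104928237, minus strand) loads cholesterol and phospholipid onto apolipoprotein A-I and begins the assembly of high-density lipoprotein. Its counts were 261, 224 and 284 in control siRNA and 724, 866 and 842 in BARD1 siRNA libraries. The lowest BARD1 siRNA library was thus well above the highest control. Mean levels were 14.6 ± 1.32 and 48.1 ± 3.38 CPM, so that ABCA1 rose by 1.72 on the log2 scale (SE 0.10, 95% interval 1.52 to 1.92, edgeR adjusted p = 7.84e-21). Per length this was 1.29 ± 0.116 and 4.24 ± 0.298 RPKM, and ABCA1 moved from the 19th to the 12th place among the ABC genes.

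ABCA3 (ENSG00000167972, chr16:2275881-2340746, minus strand) moves surfactant phospholipids into the lamellar bodies of lung cells. Its counts of 546, 540 and 522 in control siRNA compared with 385, 383 and 375 in BARD1 siRNA libraries. Replicates were close and the groups were separate, and mean levels were 30.6 ± 1.44 and 22.6 ± 1.08 CPM (log2 fold change -0.43, SE 0.10, 95% interval -0.63 to -0.24, edgeR adjusted p = 2.78e-04). The pseudogene ABCA17P overlaps it on the opposite strand with a mean of 21.3 counts against 459 for ABCA3.

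ABCA2, a lysosomal lipid transporter of brain, was the most abundant exporter of this class per length at 11.8 ± 0.0793 and 12.3 ± 0.544 RPKM. Its log2 fold change was 0.05 with a 95% interval of -0.06 to 0.17. ABCA7, linked to phospholipid export and phagocytosis, had a log2 fold change of -0.17 (95% interval -0.43 to 0.10), and ABCA5 one of 0.20 (95% interval -0.16 to 0.57). ABCG4, a sterol exporter of neural cells, had 54, 38 and 37 counts in control siRNA and 39, 18 and 19 in BARD1 siRNA libraries. These overlap through the first BARD1 siRNA library, and the log2 fold change of -0.69 was not called (edgeR adjusted p = 0.117). Without that library it was -1.18 and was called (edgeR adjusted p = 0.0186). The related exporters ABCG1, ABCG5 and ABCG8 had at most 6, 5 and 4 counts in a library, ABCB4 at most 3, ABCA4 at most 8 and ABCA12 at most 12.

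The ABCB transporters of mitochondria and lysosomes assemble from paired chains. ABCB10 (ENSG00000135776, chr1:229516582-229558695, minus strand) sits in the mitochondrial inner membrane and is needed for haemoglobin synthesis in red cell precursors. It had 1357, 1115 and 1268 counts in control siRNA and 647, 791 and 666 in BARD1 siRNA libraries. All BARD1 siRNA values were below the lowest control. Mean levels of 71.0 ± 5.92 and 41.6 ± 4.58 CPM gave a log2 fold change of -0.77 (SE 0.08, 95% interval -0.93 to -0.61, edgeR adjusted p = 1.76e-11). Per length it stood at 16.7 ± 1.39 and 9.79 ± 1.08 RPKM and went from the 4th to the 7th place in the family.

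ABCB8, a further transporter of the mitochondrial inner membrane, stood at 30.2 and 32.8 CPM (log2 fold change 0.12, 95% interval -0.07 to 0.30). The lysosomal peptide transporter ABCB9 stood at 10.5 and 8.93 CPM (log2 fold change -0.24, 95% interval -0.56 to 0.09). Neither was called. ABCB6, a porphyrin transporter, had 5 to 13 counts per library and was not tested.

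The ABCD proteins serve peroxisomes and, in the case of ABCD4, the lysosome. ABCD3 (ENSG00000117528, chr1:94418455-94518666, plus strand) encodes the major peroxisomal membrane protein PMP70, which imports branched-chain acids and bile acid intermediates. Counts were 1754, 1663 and 1856 in control siRNA and 1015, 1120 and 1195 in BARD1 siRNA libraries. The gap between the groups was wider than the spread within either. ABCD3 stood at 100.2 ± 2.67 and 65.8 ± 3.13 CPM, with a log2 fold change of -0.61 (SE 0.06, 95% interval -0.74 to -0.48, edgeR adjusted p = 2.63e-11). ABCD3 went from the 5th to the 9th place by RPKM.

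ABCD4, which serves lysosomal cobalamin export, had a log2 fold change of 0.10 (95% interval -0.10 to 0.30) and was not called. ABCD2 had 0 counts in every library.

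The 4 ABCE and ABCF genes were all tested and made up 42.1% of the family's RPKM sum in control siRNA and 42.5% in BARD1 siRNA libraries. ABCE1 (ENSG00000164163, chr4:145097932-145129179, plus strand) splits ribosomes after termination so that their subunits can be used again. It had 3404, 3136 and 3604 counts against 2641, 2678 and 2660. Without overlap, ABCE1 stood at 193 ± 7.96 and 158 ± 4.89 CPM (log2 fold change -0.29, SE 0.05, 95% interval -0.39 to -0.18, edgeR adjusted p = 1.57e-05). OTUD4 overlaps ABCE1 on the opposite strand with a mean of 1713 counts against 3020.5, and it had a log2 fold change of 0.26 (edgeR adjusted p = 0.00149). As with ABCC10, the strand setting is not given, so reads where these genes overlap cannot be assigned with certainty.

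ABCF3 (ENSG00000161204, chr3:184186023-184194012, plus strand) belongs to the ABCF translation factors. Its counts were 754, 821 and 774 in control siRNA and 801, 937 and 876 in BARD1 siRNA libraries. In CPM the ranges were 42.9 to 48.2 and 49.3 to 55.5, which do not overlap but nearly touch. The log2 fold change was 0.21 (SE 0.08, 95% interval 0.05 to 0.37, edgeR adjusted p = 0.0307). It lost the call with library size alone (0.15, adjusted p = 0.130) and without the first control (adjusted p = 0.117), the third control (adjusted p = 0.0898) or the second BARD1 siRNA library (adjusted p = 0.200). ABCF1, which acts in initiation of translation, had a log2 fold change of 0.08 (95% interval -0.04 to 0.20), and ABCF2 one of -0.07 (95% interval -0.24 to 0.10).

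By level per length the control siRNA order began with ABCE1 at 30.7 ± 1.27, ABCF1 at 27.1 ± 1.65 and ABCC1 at 21.5 ± 0.589 RPKM. In BARD1 siRNA libraries ABCF1 at 28.6 ± 0.880 RPKM stood before ABCE1 at 25.2 ± 0.780 RPKM. The sum over all 45 members was 181 ± 3.51 RPKM in control siRNA and 172 ± 2.22 RPKM in BARD1 siRNA libraries. Scaling by library size alone gave 184 and 168 RPKM. ABC reads made up 0.116% to 0.125% of all counts in a library.

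**Figure D3:**
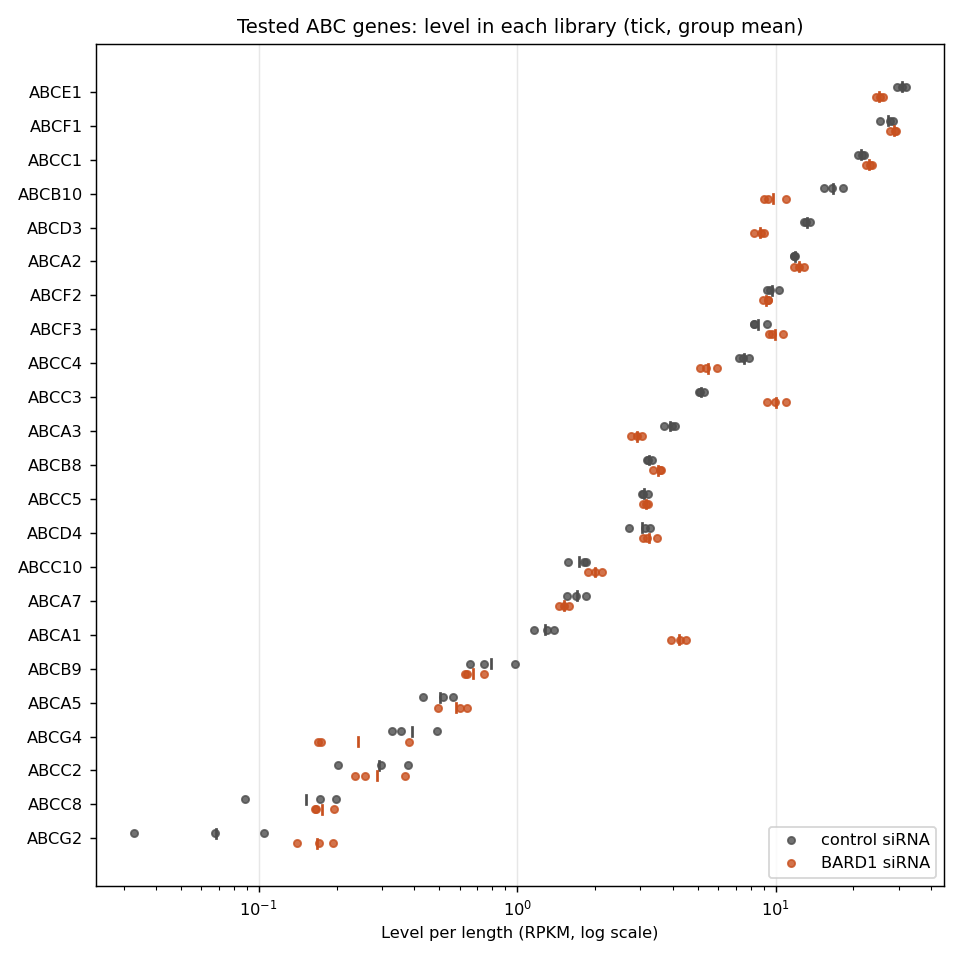
Level of 23 tested ABC genes in each library in RPKM (log axis), ordered by the control siRNA mean, with ticks for group means. Levels span from ABCG2 at 0.0685 to ABCE1 at 30.7 RPKM in control siRNA, and ABCA1, ABCC3, ABCB10 and ABCD3 show the clearest separation of the groups.

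The remaining 20 members were too low to test. Of these, 6 had 0 counts in all libraries, namely ABCA6, ABCA8, ABCB5, ABCB11, ABCC9 and ABCD2. The 3 counts that a total of 0 allows correspond to at most 0.0570 CPM over the control and 0.0594 CPM over the BARD1 siRNA libraries. The other 14 had at most 20 counts in a library, and that value belonged to ABCC6 in control replicate 3. Of members not yet described, ABCA9 had at most 1 count in a library, ABCC12 at most 4, ABCA10 at most 5 and ABCA13 at most 6. ABCB11, the bile salt export pump, and ABCC9, a sulfonylurea receptor, are typical of liver and muscle. The other sulfonylurea receptor, ABCC8, was tested with 19 to 45 counts per library and had a log2 fold change of 0.20 (95% interval -0.49 to 0.88).

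RefSeq promoter windows of 300 bases, from 250 before to 50 after the start site, were found for 35 of the 45 members. ABCA4, ABCA8, ABCB4, ABCB5, ABCC1, ABCC3, ABCC8 and ABCG1 were among those with none in the table. The start site used here differs from the start of the deposited gene model by 82 bases for ABCA1, 12 for ABCB10, 66 for ABCD3 and 24 for ABCC4. The deposited start lies upstream of it for ABCA1 and ABCC4 and downstream for ABCB10 and ABCD3. The TATA box and direct repeat of ABCA1 therefore lie inside its deposited gene model. Both strands were searched, and the share given for each motif is that of all 35116 windows.

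The GC box GGGCGG, the letters bound by Sp1 and related factors, occurred in 18 of 35 ABC windows, against 45.0% of all windows. It was present in both windows of members that rose (ABCA1 and ABCF3), in 3 of 5 of members that fell, in 10 of 13 of tested members not called and in 3 of 15 of untested members. ABCB10 and ABCD3 each held 4, and 2 of those of ABCB10 adjoin each other 119 and 113 bases before the start site. The TATA box TATAAA was found in 5 of 35 ABC windows and in 11.5% of all. In the ABCA1 sequence shown above it begins 31 bases before the start site. The E-box CACGTG was found in 4 of 35 ABC windows and in 7.26% of all. That of ABCA1 begins 147 bases before the start site.

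ABCA1 alone of the 35 held a direct repeat of GGTNA with 5 bases between its copies, a pattern present in 0.626% of all windows. It starts 69 bases before the start site and reads on the strand opposite to the gene. Direct repeats of this spacing are known binding sites of liver X receptors (LXR) paired with retinoid X receptors. The antioxidant element core TGACNNNGC, known as a site of NRF2, was found in 7 of 35 windows, against 13.3% of all. It was present in 2 of 5 windows of members that fell, ABCC4 (149 bases before the start site) and ABCA3 (197 bases before it). Of tested members not called 4 of 13 held it, of untested members 1 of 15 and of members that rose 0 of 2. The CCAAT box CCAAT was found in 6 windows (34.6% of all), the AP-1 site TGANTCA in 2 (7.71%) and TGATGNAA, a joint site of C/EBP and ATF factors, in 3 (3.62%). No ABC window held the E2F site TTTCGCGC (0.515%) or GCGCATGC, part of an NRF1 site (3.05%). These are letter matches only, and some overlap one another.

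Windows of tested members were richer in CpG dinucleotides than those of untested members. The 20 tested members with a window had a median of 27 CpG per 300 bases (range 1 to 47), the 15 untested members a median of 3 (range 1 to 25), and all windows a median of 14. The 5 members that fell and had a window ranged from 28 for ABCE1 to 47 for ABCC4, and those that rose had 23 for ABCA1 and 37 for ABCF3. Tested members that were not called ran from 1 for ABCC2 and 3 for ABCG2 to 37 for ABCF1 and 45 for ABCA5. ABCB1 had 1. No test was made on these values.

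**Figure D4:**
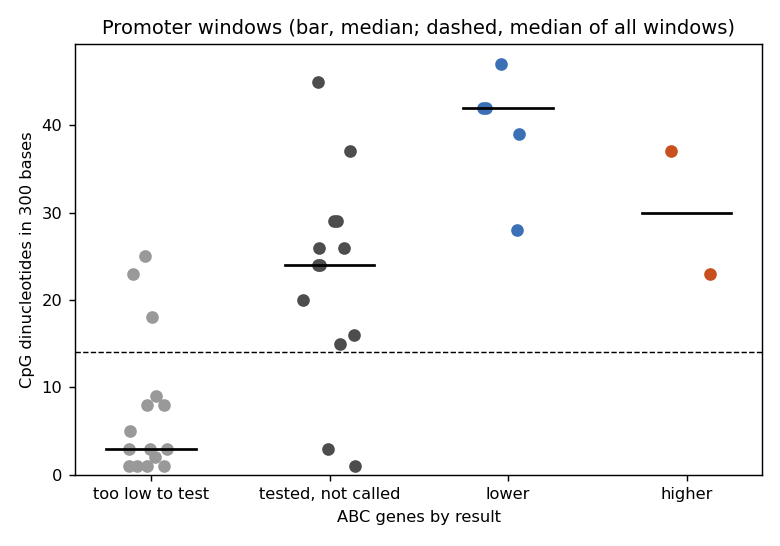
CpG dinucleotides per 300-base RefSeq promoter window of 35 ABC genes (points), by result in the edgeR test, with bars for medians and a dashed line for the median of all windows, 14. Untested members have a median of 3 and members that fell a median of 42. Tested members not called run from 1 (ABCC2) to 45 (ABCA5).

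Genes that work beside the ABC family were read from the same fit, in 8 lists. Of 3 ABC proteins named otherwise, the antigen peptide transporter subunits TAP1 and TAP2 both rose, where 22% of all tested genes were called higher. TAP1 had 577, 603 and 675 counts in control siRNA and 1031, 1097 and 987 in BARD1 siRNA libraries, a log2 fold change of 0.81 (SE 0.08, edgeR adjusted p = 5.09e-12). TAP2 had a log2 fold change of 0.33 (SE 0.08, edgeR adjusted p = 7.67e-04). The chloride channel CFTR, with 31 counts over the controls and 19 over the BARD1 siRNA libraries, was too low to test.

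Of 24 regulators of efflux genes 20 were tested, and 12 rose and 1 fell (median log2 fold change 0.37). This is 65% called, against 42.3% of all tested genes and 47.1% of tested protein-coding genes. Over all tested genes 22% were called higher and 20.3% lower. The hypoxia factor EPAS1 rose by 1.59, FOXO1 by 0.90, FOXO3 by 0.60 and PPARA by 0.51 on the log2 scale. NFE2L2, which encodes NRF2, rose by 0.29 (edgeR adjusted p = 8.77e-05), and its inhibitor KEAP1 fell by 0.24 (edgeR adjusted p = 0.00174). NR1H2, which encodes LXR-beta, rose by 0.47 (edgeR adjusted p = 9.36e-08), whereas NR1H3, which encodes LXR-alpha, went from 4.54 to 5.85 CPM and was not called (edgeR adjusted p = 0.159). The pregnane X receptor gene NR1I2 had 0 counts over the controls and 3 over the BARD1 siRNA libraries.

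The list of LXR targets and sterol handling held 17 genes, of which 15 were tested, 6 rose and 2 fell (median log2 fold change 0.37). This makes 53.3% called, against 42.3% of all tested genes and 47.1% of tested protein-coding genes. MYLIP, a ubiquitin ligase, rose by 1.29 on the log2 scale, and NPC1, which exports cholesterol from lysosomes, rose by 1.01. Among the 7 not called, LPCAT3 and SMPDL3A had log2 fold changes of -0.20 and -0.41, and APOC1 and LCAT of 0.62 and 0.37. A part of LXR in these changes was not tested. SREBF2, the regulator of sterol synthesis counted among the regulators, rose by 0.37. APOE fell by 0.79 (edgeR adjusted p = 0.0425), but this call was lost in 9 of 16 alternatives, among them those without control replicate 2 or 3 or any 1 BARD1 siRNA library, where it ranged from -0.86 to -0.58. In each of those 9 the list had 1 gene called lower. The other gene of the list that fell was SCD, a fatty acid desaturase, by 0.46.

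Of 25 other drug carriers, 18 were tested, 5 rose and 5 fell (median log2 fold change -0.07). The share called was 55.6%, against 42.3% of all tested genes and 47.1% of tested protein-coding genes. The organic anion carrier SLCO4A1 rose by 1.54, SLC22A18 by 1.28 and the vault protein MVP by 0.57 on the log2 scale, while the cation exporter SLC47A2 fell by 1.66. SLC22A4 and the copper importer SLC31A1 also rose, and SLC47A1, ATP7B and SLC29A1 also fell. The count called lower was 3 without the first control or without the second BARD1 siRNA library. The list of conjugation enzymes holds 30 genes, most of which join drugs to groups such as glutathione, glucuronate or sulfate. It also holds enzymes that oxidise or reduce drugs, CYP1A1, CYP1B1 and NQO1 among them. Of the 23 tested, 4 rose and 9 fell (median log2 fold change -0.26). The 56.5% called compare with 42.3% of all tested genes and 47.1% of tested protein-coding genes. CYP1A1 fell by 1.11, UGT8 by 0.66, GSTM4 by 0.54 and CYP1B1 by 0.48. Among those that rose were NQO1, MGST1 and GSTO1. GSTM4 was no longer called without control replicate 2 or 3 or BARD1 siRNA replicate 1 or 3 (adjusted p up to 0.134).

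The heme and iron-sulfur partners of the ABCB transporters numbered 31, all tested, of which 6 rose and 10 fell (median log2 fold change -0.04). The 51.6% called stand beside 42.3% of all tested and 47.1% of tested protein-coding genes. HMOX1, the enzyme that degrades heme, had 374, 401 and 440 counts in control siRNA and 9401, 9760 and 9190 in BARD1 siRNA libraries. HMOX1 thus rose by 4.60 on the log2 scale (SE 0.06, edgeR adjusted p = 2.68e-48), from 23.1 ± 1.61 to 562 ± 29.1 CPM. ALAD, of heme synthesis, fell by 0.70, and NFS1, the cysteine desulfurase of iron-sulfur assembly, fell by 0.49. The mitochondrial chaperone HSPA9 rose by 0.58.

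Of 32 peroxisomal and cobalamin partners of the ABCD proteins, all tested, 13 fell and 1 rose (median log2 fold change -0.19). The 43.8% called lie between the 42.3% of all tested genes and the 47.1% of tested protein-coding genes. MMACHC, of cobalamin processing, fell by 0.96, catalase (CAT) by 0.51 and the peroxisome assembly factor PEX2 by 0.50. Without the second BARD1 siRNA library 7 were called lower. The assembly factor PEX19 was the one that rose, at an adjusted p of 0.0335 in edgeR, and no partner was called higher in 6 of the 16 alternatives, among them those without the first control or without the first or second BARD1 siRNA library. Of 21 partners of ABCE1 in ribosome rescue and recycling, 19 were tested, 5 rose and 4 fell (median log2 fold change -0.02). The share of 47.4% is near the 47.1% of tested protein-coding genes and stands beside 42.3% of all tested genes. ZNF598, which senses collided ribosomes, rose by 0.59 and LTN1, which marks stalled chains, by 0.40, while DENR and GCN1 fell by 0.35 and 0.33. PELO, ETF1 and EIF3J also rose, and EIF2D and ASCC3 also fell.

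**Figure D5:**
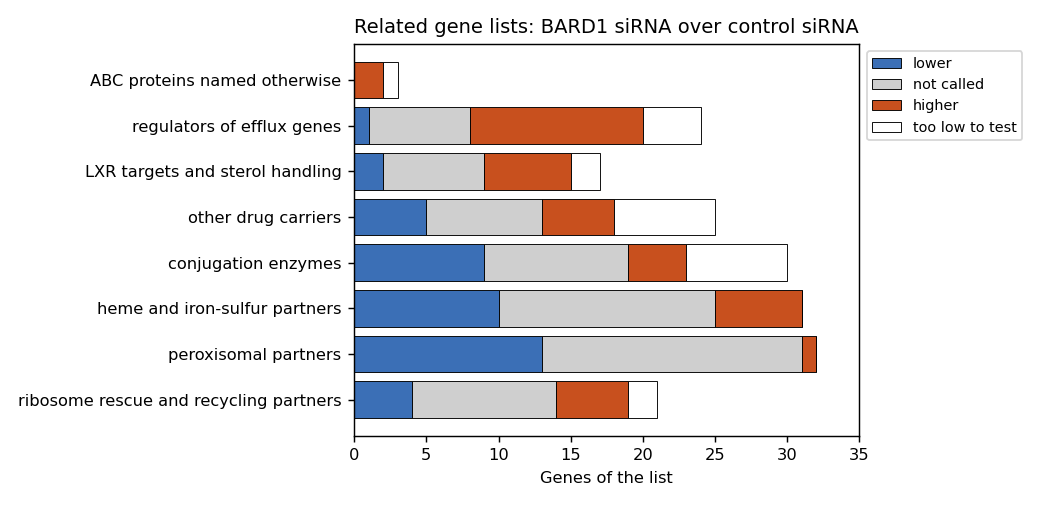
Number of genes in each of 8 lists of partners (horizontal axis) that were called lower, not called, called higher or too low to test in edgeR. The regulators of efflux genes have 12 called higher and 1 lower, and the peroxisomal partners 1 higher and 13 lower. Over all tested genes 22% were called higher and 20.3% lower. The bar of conjugation enzymes includes oxidising and reducing enzymes.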

How the data were processed

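RNA of 6 cultures was measured by poly(A) RNA sequencing. The deposited table gives whole-number read counts per gene, not normalised by the authors. HISAT2 and CASAVA with GRCh38 (hg38) are named in the submitters' processing notes. No source used here gives their versions, the counting program or the strand setting. Groups came from the sample titles. Counts were tested with edgeR 4.0.16 in R 4.3.3 (robust quasi-likelihood test, TMM factors, group alone), after filterByExpr with a minimum count of 10 and a minimum total of 15, which left 15271 of the 29419 genes that had a count. P-values were adjusted over these by Benjamini-Hochberg, with a threshold of 0.05. The SE was computed as the size of the log2 fold change over the square root of F. CPM and RPKM use TMM-scaled totals and, for RPKM, the deposited gene length, whose derivation no source used here gives. The floor is 3 counts over a group and covers counting error only. The edgeR script was also run on simulated counts in which few genes changed. Many genes changed in these data, so that run cannot speak of scaling or error rates here.

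Values are given in full for members past the threshold and for ABCB1, ABCC1, ABCC2, ABCC3, ABCC4, ABCG2 and ABCA1 in any case. From each list the rule takes up to 4 called genes of largest absolute change and TAP1, TAP2, CFTR, NFE2L2, NR1I2, NR1H2, NR1H3, SREBF2 and MVP. KEAP1, PEX19, SCD, LPCAT3, SMPDL3A, APOC1, LCAT and the further genes of lists with few calls were named after their values were seen. The members and lists were chosen with earlier results of these data known. Results for some genes are counted but not reported by name here. The 16 alternatives were other scaling, DESeq2 1.42.0, limma-voom (limma 3.58.1), other filters, protein-coding genes only, no robust estimation, a replicate block and leaving out each library. Of the tested members, 4 overlap a tested gene, in each case on the opposite strand, and none had the lower mean count of the pair. Replicates differed by more than sampling noise (chi-square per degree of freedom 3.31 to 7.77).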

Additional observations from a re-analysis of the deposited data

How the results depend on the processing

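Under the 16 alternatives, 2 or 3 ABC genes were called higher and 6 or 7 lower, and 5665 to 6790 genes were called in all, against 3, 6 and 6462. Of the 9 called members 8 kept direction and call in every alternative, and ABCF3 lost its call in 6, among them upper-quartile factors (0.15, edgeR adjusted p = 0.146) and no filter on low counts (0.21, adjusted p = 0.0511). Of 16 members not called, 2 were called in 1 alternative each, ABCG4 among them. ABCG2 could not be fitted under the filter of 1 CPM in 3 libraries, and its adjusted p ran from 0.0511 to 0.256 in the others. With a replicate block the test called 3 members higher, 6 lower and 6512 genes in all. Deviations from the group mean over all tested genes correlated at -0.01, -0.01 and -0.02 between same-numbered libraries. Libraries with different numbers were not compared and scarce genes were included, so these values cannot tell whether the numbers pair the libraries. The main test used group alone because the labels name no batch. Over the lists 21 of 256 counts moved by more than 1.5 times, and 30 of the 33 called genes followed in them kept their call throughout, APOE and GSTM4 being among the exceptions. Upper-quartile factors and library size alone shifted the median of all genes by -0.07 and -0.06 on the log2 scale. Leaving out any 1 library gave 2 to 3 members higher and 6 to 7 lower. Depth limits the scarce members: the interval of ABCG2, with 3 to 17 counts per library, spans 0.09 to 2.50.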

Other observations

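Several ABC genes lie side by side, and some of these neighbours stood at very different levels. On chromosome 16, ABCC1 and ABCC6 are 5.85 kb apart in the deposited gene models, and ABCC1 had 2695 to 2966 counts per library where ABCC6 had 2 to 20. On chromosome 17, ABCA8, ABCA9, ABCA6, ABCA10 and ABCA5 form a row, and of these ABCA5 alone was tested, with 97 to 147 counts per library, while the other genes of the row had at most 5. ABCB4 and ABCB1 on chromosome 7 are 23.2 kb apart, and neither was tested. ABCA12, with 2 to 12 counts per library, lies 122 kb from BARD1 on chromosome 2. ABCF3, which rose, and ABCC5, which was not called, are 168 kb apart on chromosome 3.

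The table also lists 13 ABC pseudogenes, of which 8 had 0 counts in every library. ABCA11P had 31, 48 and 41 counts in control siRNA and 22, 30 and 16 in BARD1 siRNA libraries. The 3 ABCB10 pseudogenes had 10 counts in all, from ABCB10P3, beside a mean of 974 per library for ABCB10, and the 2 ABCF2 pseudogenes had none.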
